A study of Mus musculus with 12 samples.

Results

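A set of 8 genes that mark the formative and primed epiblast was followed across 12 bulk RNA libraries of PGCLCs, mouse primordial germ cell-like cells. They were Fgf5, Otx2, Pou3f1, Sox3, Sall2, Zic2, Zic5 and Foxd3, taken by name from 35975 genes in the libraries. Earlier results of these data were known when they were chosen. PGCLCs stand in culture for the founders of the germ line. All libraries came from the embryonic stem cell line E14TG2a, kept in serum-free medium with LIF, inhibitors of GSK3 and MEK, and vitamin C. Stem cells were first converted to epiblast-like cells (EpiLCs), a step called priming here, and then grown for 4 days as aggregates with BMP4, BMP8, stem cell factor, EGF and LIF. The groups were TKO primed for 40 h (TKO_40h), TKO primed for 48 h (TKO_48h), TKO primed for 96 h (TKO_96h) and WT primed for 40 h (WT_40h), with 3 biological replicates each. TKO is known from the study to lack Dnmt1, Dnmt3a and Dnmt3b, the DNA methyltransferases. WT was sequenced at 1 priming time, so priming can be compared within TKO only. The labels do not say how many TKO clones were used, nor whether RNA came from sorted cells or whole aggregates.

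The epiblast is the tissue of the early embryo that gives rise to the whole body, germ line included. Before implantation its cells are naive. They then pass through a formative state, in which they can become germ cells, and reach a primed state shortly before gastrulation. EpiLCs are the culture counterpart of the formative state, and entry into the germ line is accompanied by loss of epiblast genes such as Fgf5 and Otx2. The 8 genes comprise a secreted ligand (Fgf5), a homeodomain factor that restrains germ cell entry in the mouse (Otx2), a POU factor (Pou3f1), a SOXB1 factor (Sox3), 3 zinc finger factors (Sall2, Zic2 and Zic5) and a forkhead factor (Foxd3). Several of them have later roles in the nervous system and neural crest. In GENCODE M21 on GRCm38, Fgf5 lies at chr5:98254184-98277030 (plus strand, ENSMUSG00000029337), Otx2 at chr14:48657677-48673819 (minus), Pou3f1 at chr4:124656807-124660655 (plus) and Sox3 at chrX:60891366-60893430 (minus). Sall2 lies at chr14:52311172-52328762 (minus), Zic2 at chr14:122475435-122479852 (plus), Zic5 at chr14:122456795-122465677 (minus) and Foxd3 at chr4:99656299-99658622 (plus). Pou3f1, Sox3 and Foxd3 are genes of 1 exon.

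Promoters are shown because the TKO line lacks DNA methylation enzymes, which act on CG dinucleotides. In the RefSeq promoter table for GRCm38.p6, 5 of the 8 genes had an entry, each window running from 250 bases before a transcript start to 50 bases after it. The windows printed are those of Fgf5 (chr5:98253934-98254233, plus strand), of the Otx2 start nearest to its most counted transcript (chr14:48665060-48665359, minus strand) and of Zic5 (chr14:122465609-122465908, minus strand). Capitals mark each CG.
Fgf5: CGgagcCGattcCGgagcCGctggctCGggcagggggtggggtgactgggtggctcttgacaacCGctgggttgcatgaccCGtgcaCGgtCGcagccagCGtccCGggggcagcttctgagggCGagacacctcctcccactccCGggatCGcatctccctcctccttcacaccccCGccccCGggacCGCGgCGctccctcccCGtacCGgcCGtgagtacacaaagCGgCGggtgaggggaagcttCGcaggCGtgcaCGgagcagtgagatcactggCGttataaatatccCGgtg
Otx2: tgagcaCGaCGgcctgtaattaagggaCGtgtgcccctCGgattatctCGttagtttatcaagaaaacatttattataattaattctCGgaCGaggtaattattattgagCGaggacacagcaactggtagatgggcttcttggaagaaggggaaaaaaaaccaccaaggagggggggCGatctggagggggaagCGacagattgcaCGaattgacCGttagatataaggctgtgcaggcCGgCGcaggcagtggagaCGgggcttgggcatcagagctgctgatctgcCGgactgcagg
Zic5: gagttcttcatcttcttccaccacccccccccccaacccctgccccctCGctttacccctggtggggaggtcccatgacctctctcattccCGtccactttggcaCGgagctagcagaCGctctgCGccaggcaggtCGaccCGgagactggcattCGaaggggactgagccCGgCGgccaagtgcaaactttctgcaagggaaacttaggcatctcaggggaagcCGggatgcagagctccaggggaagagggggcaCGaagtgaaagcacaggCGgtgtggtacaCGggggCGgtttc
The Fgf5 window held 29 CG, the printed Otx2 window 16 and the Zic5 window 15, against a median of 7 over 32851 promoters. Of all promoters, 87.1% had fewer CG than the Fgf5 window, 67.0% fewer than the printed Otx2 window and 65.4% fewer than the Zic5 window. The other Otx2 starts had 6, 8 and 11 CG. Foxd3 had 25 CG in its window, and the starts of Sall2 had 1 and 10. The letters TAATCC, the core sequence bound by OTX proteins, occurred once in the Otx2 window on the strand opposite to the one printed, and in 7.06% of all promoters on either strand. The POU octamer ATGCAAAT was in none of the windows of these genes and in 1.74% of all promoters. Methylation was not measured in these libraries, and these letters describe the sequence alone.

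Libraries held 6570180 to 9114128 estimated counts. The targeted genes were called lower in each TKO group than in WT_40h. Dnmt3a averaged 64.3 ± 3.97 CPM, read counts scaled to library size, in TKO_40h and 406 ± 41.5 CPM in WT_40h (SD, n = 3). Dnmt3b averaged 47.9 ± 8.28 CPM in TKO_40h and 185 ± 28.9 CPM in WT_40h, and Dnmt1 120 ± 8.63 CPM in TKO_40h and 439 ± 12.1 CPM in WT_40h. TKO_48h replicate 1 stood apart on the second principal component, at -85.6 against -20.7 to 33.8 for the others, with the fewest genes reaching 10 counts (13562) and 13.96% of counts in its top 10 genes. Germ cell genes were present in all groups: Tfap2c averaged 48.6, 68.4, 28.1 and 46.7 CPM and Dppa3 51.5, 47.2, 18.5 and 16.8 CPM in TKO_40h, TKO_48h, TKO_96h and WT_40h, while Nanos3 stayed at 1.40 to 2.73 CPM. These are bulk samples, in which fewer cells of a type and less RNA per cell cannot be told apart.

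Each gene was tested with edgeR's quasi-likelihood F-test on counts summed per gene, and is called when its Benjamini-Hochberg adjusted p over 16178 tested genes is below 0.05. All 8 genes passed the filter on low counts. After 96 h of priming, set against 40 h, 4 of 8 were called, all lower, namely Fgf5, Otx2, Pou3f1 and Sox3, where 12.1% of all tested genes were called in either direction. After 48 h against 40 h, 3 of 8 were called, all lower (Fgf5, Sox3 and Sall2), where 5.49% of all genes were called. Between TKO and WT at 40 h, 2 of 8 were called, both higher in TKO_40h (Fgf5 and Pou3f1), where 3.1% of all genes were called. Zic2, Zic5 and Foxd3 were called in none of the 6 comparisons made, by edgeR or by DESeq2, although at an unadjusted p below 0.05 Zic2 passed in 3 of them, Zic5 in 2 and Foxd3 in 0.

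**Figure D1:**
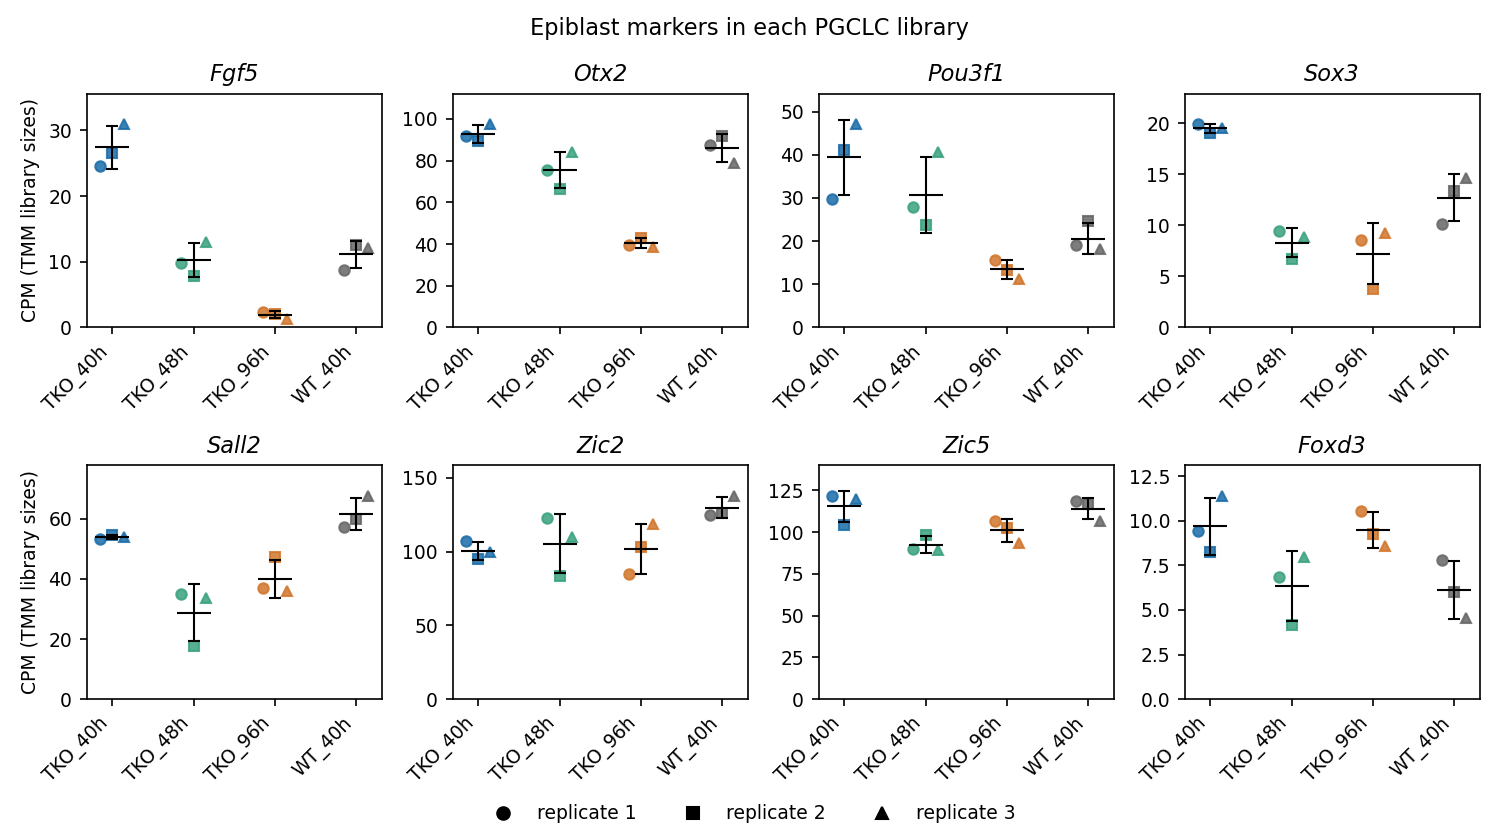
CPM of the 8 genes (vertical axes, from 0, scaled separately) in each library, by group; points are replicates, the long bar is the mean and the error bar the SD (n = 3). Fgf5 sits between 1.32 and 2.42 CPM in TKO_96h and between 24.6 and 30.95 CPM in TKO_40h, while Zic2 and Zic5 lie near 100 CPM in every TKO group.

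Fgf5, the growth factor that is switched on as the epiblast leaves the naive state, gave the widest range of the set. Its libraries had 24.6, 26.6 and 30.95 CPM in TKO_40h, 9.79, 7.89 and 13.1 CPM in TKO_48h, 2.42, 2.10 and 1.32 CPM in TKO_96h, and 8.79, 12.6 and 12.02 CPM in WT_40h. TKO_40h was above all other libraries and TKO_96h below all others, with TKO_48h and WT_40h overlapping. In TKO_96h these values rest on 16, 15 and 10 counts per library. TKO_96h was 14.1-fold lower than TKO_40h (log2 fold change -3.81 ± 0.31, SE; adjusted p = 6.57e-08). At the intermediate time, TKO_48h was 2.67-fold lower than TKO_40h (-1.42 ± 0.26, adjusted p = 0.00383), and TKO_96h was 5.27-fold lower than TKO_48h (-2.40 ± 0.31, adjusted p = 2.06e-05). These 3 calls held in all 12 alternatives run for each.

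At equal priming, Fgf5 was 2.47-fold higher in TKO_40h than in WT_40h (log2 fold change 1.30 ± 0.26, adjusted p = 0.00903). The call was lost with an effective length offset (adjusted p = 0.0865), without WT_40h replicate 1 (0.0563) and without TKO_40h replicate 3 (0.0589), at log2 fold changes of 1.28, 1.17 and 1.21. TKO_96h was 5.70-fold lower than WT_40h (-2.51 ± 0.31, adjusted p = 1.25e-05). The difference between TKO_48h, with a mean of 10.3 CPM, and WT_40h, with 11.1 CPM, was not called (-0.11 ± 0.27, adjusted p = 0.867).

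Otx2, the homeodomain factor of the epiblast and forebrain, was lower after 96 h of priming alone. It had 91.8, 89.2 and 97.5 CPM in TKO_40h, 75.6, 66.6 and 84.1 CPM in TKO_48h, 39.7, 43.1 and 38.8 CPM in TKO_96h, and 87.5, 92.0 and 78.8 CPM in WT_40h. The 3 TKO_96h libraries lay below the other 9. TKO_48h lay below TKO_40h without overlap, and WT_40h overlapped with both. TKO_96h was 2.29-fold lower than TKO_40h (log2 fold change -1.20 ± 0.12, adjusted p = 1.37e-06), 1.86-fold lower than TKO_48h (-0.90 ± 0.12, adjusted p = 3.07e-05) and 2.12-fold lower than WT_40h (-1.09 ± 0.12, adjusted p = 3.45e-06). All 3 calls held in every alternative run. TKO_48h against TKO_40h gave -0.30 ± 0.12 (adjusted p = 0.154), and TKO_40h against WT_40h gave 0.11 ± 0.12 (adjusted p = 0.743), neither of them called.

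Pou3f1 encodes OCT6, a POU factor of the epiblast and of glial and neural cells. Its libraries had 29.9, 41.2 and 47.1 CPM in TKO_40h, 27.8, 23.8 and 40.6 CPM in TKO_48h, 15.7, 13.3 and 11.3 CPM in TKO_96h, and 19.0, 24.7 and 18.1 CPM in WT_40h. TKO_96h was the lowest group in every library, TKO_48h overlapped with both TKO_40h and WT_40h, and TKO_40h lay above WT_40h throughout. TKO_96h was 2.94-fold lower than TKO_40h (log2 fold change -1.55 ± 0.23, adjusted p = 0.000153) and 2.29-fold lower than TKO_48h (-1.20 ± 0.23, adjusted p = 0.00117), in all alternatives. TKO_40h was 1.91-fold higher than WT_40h (0.94 ± 0.23, adjusted p = 0.0278). That call was lost with the effective length offset (adjusted p = 0.129) and in 4 single-library omissions, those of WT_40h replicates 1 and 3 (0.111 and 0.114) and TKO_40h replicates 2 and 3 (0.1 and 0.135). TKO_96h, with 13.5 ± 2.18 CPM, against WT_40h, with 20.6 ± 3.57 CPM, gave -0.62 ± 0.24 (adjusted p = 0.0724), and was called when no filter on low counts was applied (0.0435).

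Sox3, an X-linked SOXB1 gene active in the epiblast and neural plate, separated TKO_40h from the later priming times. It had 19.9, 19.0 and 19.6 CPM in TKO_40h, 9.45, 6.69 and 8.81 CPM in TKO_48h, 8.61, 3.78 and 9.23 CPM in TKO_96h, and 10.1, 13.4 and 14.7 CPM in WT_40h. TKO_40h was above all other libraries, WT_40h came next without overlap, and TKO_48h and TKO_96h overlapped. TKO_96h was 2.70-fold lower than TKO_40h (log2 fold change -1.43 ± 0.30, adjusted p = 0.00313), in all alternatives. TKO_48h was 2.35-fold lower than TKO_40h (-1.23 ± 0.30, adjusted p = 0.019). This second call was lost with the effective length offset (0.0866) and without TKO_40h replicate 1, 2 or 3 or TKO_48h replicate 2 or 3 (adjusted p 0.0544 to 0.0698), and held without TKO_48h replicate 1. TKO_40h against WT_40h gave 0.62 ± 0.29 (adjusted p = 0.302), although the libraries did not overlap. TKO_96h against WT_40h gave -0.81 ± 0.30 (adjusted p = 0.0639) and was called only without TKO_96h replicate 3 (0.0453).

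**Figure D2:**
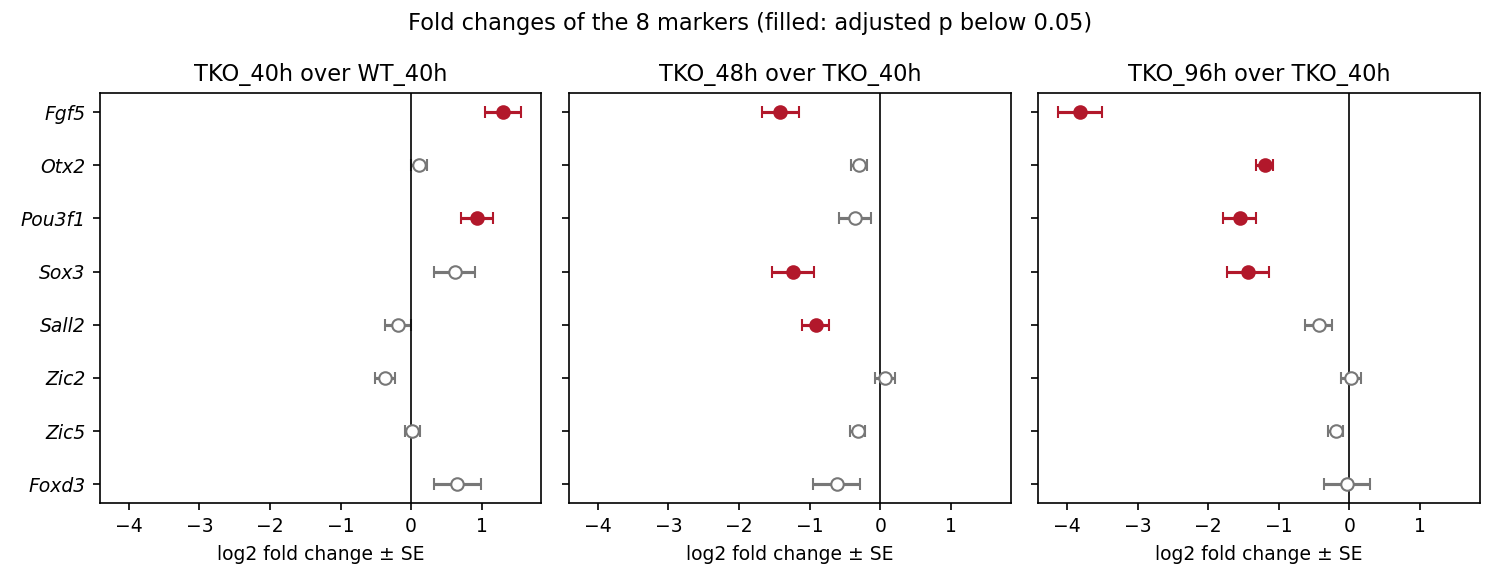
Log2 fold changes with standard errors (horizontal axis) of the 8 genes in TKO_40h over WT_40h, TKO_48h over TKO_40h and TKO_96h over TKO_40h; filled points have an adjusted p below 0.05. In TKO_96h over TKO_40h the first 4 genes lie between -3.81 and -1.20, and Zic2, Zic5 and Foxd3 lie between -0.19 and 0.03.

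Sall2, a spalt-type zinc finger gene, had its lowest level at 48 h of priming. The libraries had 53.2, 54.8 and 54.1 CPM in TKO_40h, 34.9, 17.8 and 33.7 CPM in TKO_48h, 36.8, 47.3 and 35.9 CPM in TKO_96h, and 57.4, 59.8 and 67.7 CPM in WT_40h. None of the 4 groups overlapped, in the order WT_40h, TKO_40h, TKO_96h and TKO_48h from the highest. TKO_48h was 1.89-fold lower than TKO_40h (log2 fold change -0.91 ± 0.19, adjusted p = 0.00891), a call lost with the effective length offset (0.0524), and 2.15-fold lower than WT_40h (-1.10 ± 0.19, adjusted p = 0.00227), a call that held throughout. TKO_96h was 1.54-fold lower than WT_40h (-0.62 ± 0.19, adjusted p = 0.0256). The last call was lost with the offset (0.094) and without any of WT_40h replicates 1, 2 and 3 or TKO_96h replicates 1 and 3 (adjusted p 0.0509 to 0.113). TKO_96h against TKO_48h gave 0.48 ± 0.20 (adjusted p = 0.0925) and was called without the library that stood apart, TKO_48h replicate 1 (0.64, adjusted p = 0.0387), and with no filter on low counts (0.49, 0.0311).

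Zic2 and Zic5 are neighbours on chromosome 14, transcribed away from each other with 9757 bases between them, and encode zinc finger factors of the epiblast and dorsal neural tube. Zic2 had 107, 94.6 and 99.4 CPM in TKO_40h, 123, 83.7 and 110 CPM in TKO_48h, 84.6, 103 and 118 CPM in TKO_96h, and 125, 126 and 138 CPM in WT_40h. Each TKO group lay below WT_40h without overlap, and the TKO groups overlapped with one another. Zic5 had 122, 105 and 120 CPM in TKO_40h, 90.02, 98.6 and 89.2 CPM in TKO_48h, 107, 103 and 93.5 CPM in TKO_96h, and 119, 117 and 107 CPM in WT_40h. Here TKO_40h and WT_40h overlapped, and both lay above TKO_48h. Log2 fold changes of Zic2 within TKO were 0.07 ± 0.14 for TKO_48h and 0.03 ± 0.14 for TKO_96h over TKO_40h, and those of Zic5 were -0.32 ± 0.11 and -0.19 ± 0.11. Against WT_40h, Zic2 gave -0.37 ± 0.14 in TKO_40h (adjusted p = 0.18), -0.30 ± 0.14 in TKO_48h (0.226) and -0.35 ± 0.14 in TKO_96h (0.0887). The first of these was called when only these 2 groups entered the fit (0.0132), and the last without TKO_96h replicate 3 (0.0406). Of the sequence of Zic5, 10.6% was shared, in words of 31 bases, with 1961 other genes, so that part of its counts is uncertain; the shares of the other 7 genes were 0 to 2.96%.

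Foxd3, a forkhead gene needed for the epiblast and for neural crest, was counted at a low level. It had 9.40, 8.24 and 11.4 CPM in TKO_40h, 6.87, 4.15 and 7.95 CPM in TKO_48h, 10.6, 9.24 and 8.57 CPM in TKO_96h, and 7.79, 6.01 and 4.56 CPM in WT_40h. TKO_40h and TKO_96h overlapped at the upper end, and TKO_48h and WT_40h at the lower end. Its values rest on 31 to 98 counts per library. The log2 fold change was 0.66 ± 0.33 for TKO_40h over WT_40h (adjusted p = 0.353), -0.62 ± 0.33 for TKO_48h over TKO_40h (0.327) and -0.04 ± 0.33 for TKO_96h over TKO_40h (0.967). No comparison of Foxd3 was called at this depth.

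Across the remaining comparisons, 3 of 8 were called in TKO_96h against TKO_48h, all lower (Fgf5, Otx2 and Pou3f1), where 19.5% of all genes were called. In TKO_48h against WT_40h 1 of 8 was called, Sall2, lower, where 5.66% of all genes were called, and in TKO_96h against WT_40h 3 of 8 were called, all lower (Fgf5, Otx2 and Sall2), where 19.2% were called. The median log2 fold change of the 8 genes was 0.36 in TKO_40h over WT_40h, -0.49 in TKO_48h over TKO_40h and -0.81 in TKO_96h over TKO_40h, while the median of all tested genes lay within 0.01 of 0 in each. These comparisons share libraries and are not independent of one another.

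On the scale of TPM, which is per effective length and so allows genes to be compared, Otx2 and Zic2 were the most abundant of the set. Otx2 averaged 35.5 ± 5.02, 23.8 ± 4.65, 15.1 ± 1.93 and 29.6 ± 0.73 TPM in TKO_40h, TKO_48h, TKO_96h and WT_40h (SD, n = 3). Zic2 averaged 28.7 ± 2.94, 23.6 ± 0.79, 29.5 ± 5.32 and 35.1 ± 2.92 TPM in the same groups. Otx2 was first in TKO_40h, where all its libraries (32.3 to 41.3 TPM) exceeded those of Zic2 (25.4 to 31.1 TPM), and Zic2 was first in TKO_96h and WT_40h, without overlap in either. In TKO_48h the libraries of Otx2 (18.4 to 26.6 TPM) and Zic2 (22.9 to 24.4 TPM) overlapped. Zic5 held rank 3 in every group, at 12.1 to 18.3 TPM, and overlapped with Otx2 in TKO_96h. The other genes averaged at most 9.29 TPM. Fgf5 had rank 4 of 8 in TKO_40h with 9.29 ± 2.03 TPM, rank 6 in TKO_48h with 2.59 ± 0.82 TPM, rank 8 in TKO_96h with 0.51 ± 0.17 TPM, and rank 6 in WT_40h with 3.62 ± 0.70 TPM. In TKO_40h its mean exceeded that of 72.4% of protein-coding genes, in TKO_96h that of 38.4%, and in WT_40h that of 58.5%. Foxd3 had rank 8 in TKO_40h, TKO_48h and WT_40h, at 1.45 to 2.83 TPM. In TKO_40h the Pou3f1 libraries (5.18 to 8.30 TPM) overlapped with those of Fgf5, Sall2 (6.86 to 7.33 TPM) and Sox3 (5.97 to 6.72 TPM), while Sall2 and Sox3 did not overlap.

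**Figure D3:**
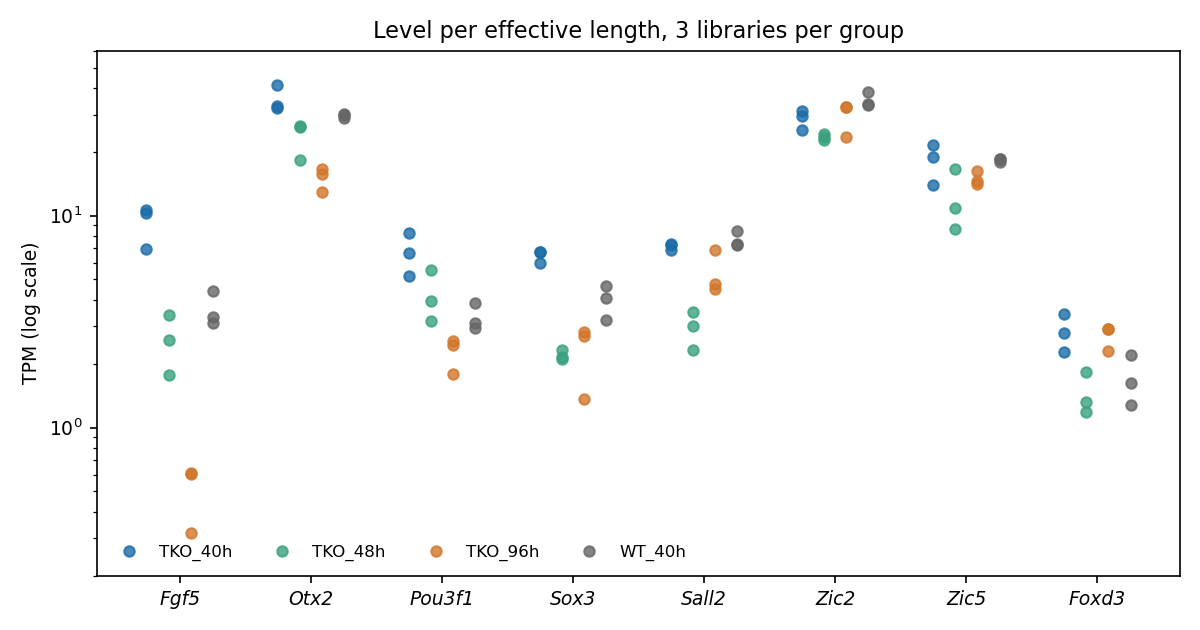
TPM (log axis) of the 8 genes in each of the 3 libraries per group. Fgf5 spans 0.317 to 10.7 TPM over all libraries, and the Zic2 libraries stay between 22.9 and 38.5 TPM.

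Over the 12 libraries, log2 CPM of Fgf5 and Otx2 had a Pearson correlation of 0.95, Fgf5 and Pou3f1 of 0.89, and Fgf5 and Sox3 of 0.77, whereas Fgf5 and Zic2 had 0.07 and Fgf5 and Foxd3 -0.07. The points fall into the 4 groups, so these coefficients describe group patterns. Among 10879 genes averaging at least 5 CPM, the profiles most like Fgf5 by correlation were those of Tfpi (r = 0.96), an inhibitor of the coagulation cascade, and Fam91a1 (0.96). Correlation does not compare the size of changes. Tfpi averaged 104 CPM in TKO_40h and 32.8 CPM in TKO_96h, and Fam91a1 64.7 and 47.3 CPM. Fgf5 averaged 27.4 and 1.945 CPM in the same groups. Otx2 was most like Stx3 (0.97), a membrane fusion syntaxin, and Lef1 (0.97), a nuclear effector of WNT signalling. Pou3f1 was most like Esrp1 (0.92), an epithelial splicing regulator, and Snx25 (0.91). Sox3 was most like Hsp90b1 (0.94), an endoplasmic reticulum chaperone, and Irgm1 (0.92). For Sall2 the nearest genes were Sgk1 (0.95), a kinase, and Xpo1 (0.90), a nuclear exporter, at 0.67 without the 2 libraries farthest from the median. Zic2 was nearest to Trim37 (0.93) and Abhd5 (0.89), Zic5 to Rbbp8 (0.93) and Mtf2 (0.93), and Foxd3 to Srp9 (0.95) and Ufm1 (0.91).

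Another 20 genes of the formative and primed epiblast were read beside the set, Dnmt3a and Dnmt3b among them. In TKO_96h over TKO_40h 9 of 20 fell and 1 rose, with a median log2 fold change of -0.44, where 12.1% of all genes were called. The targeted Dnmt3b was among those that fell. Lef1 averaged 15.6 ± 4.89 CPM in TKO_96h and 121 ± 14.5 CPM in TKO_40h (-2.95 ± 0.18, adjusted p = 7.06e-10). Grhl2, an epithelial transcription factor, averaged 26.1 ± 1.802 CPM in TKO_96h and 70.1 ± 5.55 CPM in TKO_40h (-1.42 ± 0.17, adjusted p = 1.28e-05). Both calls held in every alternative. In TKO_48h over TKO_40h 9 of 20 fell and 1 rose (median -0.41), where 5.49% of all genes were called. Without TKO_48h replicate 1 the counts were 7 and 0. The targeted Dnmt3a and Dnmt3b were among those that fell, the Dnmt3a call being lost with the effective length offset (adjusted p = 0.892). Examples were Grhl2 at 29.8 ± 5.87 CPM in TKO_48h and 70.1 ± 5.55 CPM in TKO_40h (-1.23 ± 0.17, adjusted p = 0.000284, and 0.0968 with the effective length offset) and Pim2, a kinase gene, at 15.3 ± 3.52 CPM in TKO_48h and 35.6 ± 5.55 CPM in TKO_40h (-1.21 ± 0.21, adjusted p = 0.0019).

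Against WT_40h, 4 of these 20 genes fell and 1 rose in TKO_40h, where 3.1% of all genes were called. The targeted Dnmt3a and Dnmt3b were among those that fell, and Grhl2 was the gene that rose, with 70.1 ± 5.55 CPM in TKO_40h, against 29.2 ± 5.39 CPM in WT_40h (log2 fold change 1.26 ± 0.17, adjusted p = 0.000238, and 0.0757 with the effective length offset). The median of the 20 genes was -0.03. In TKO_48h 7 fell and 1 rose, where 5.66% of all genes were called, and without TKO_48h replicate 1 the counts were 6 and 0. The targeted Dnmt3a and Dnmt3b were again among those that fell. Foxp1, a forkhead gene, averaged 113 ± 1.82 CPM in TKO_48h and 232 ± 15.96 CPM in WT_40h (-1.03 ± 0.10, adjusted p = 4.82e-06). In TKO_96h 9 fell, Dnmt3a and Dnmt3b among them, and 1 rose against WT_40h, where 19.2% of all genes were called. Lef1 averaged 15.6 ± 4.89 CPM in TKO_96h and 129 ± 10.1 CPM in WT_40h (-3.04 ± 0.18, adjusted p = 4.21e-10). Between TKO_96h and TKO_48h 2 of 20 rose and 2 fell, a share near the 19.5% of all genes called. The rises were in the targeted Dnmt3a and Dnmt3b, the first of them lost with the offset (adjusted p = 0.243). Lef1 (-2.38 ± 0.18, adjusted p = 1.32e-08) and Tdgf1, the NODAL co-receptor (-0.76 ± 0.10, adjusted p = 1.6e-05), fell.

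Genes of the naive epiblast were called mostly higher after long priming. In TKO_96h over TKO_40h 6 of 12 rose and 1 fell, with a median log2 fold change of 0.48, where 12.1% of all genes were called in either direction. Tbx3, a T-box factor of naive stem cells, averaged 130 ± 15.2 CPM in TKO_96h and 55.8 ± 5.64 CPM in TKO_40h (1.23 ± 0.14, adjusted p = 7.2e-06), and Zfp42, which encodes REX1, 776 ± 39.7 CPM in TKO_96h and 518 ± 13.1 CPM in TKO_40h (0.58 ± 0.10, adjusted p = 0.000636). Klf2 was the one that fell, at 99.7 ± 15.99 CPM in TKO_96h and 173 ± 13.1 CPM in TKO_40h (-0.79 ± 0.12, adjusted p = 0.0002). The counts were also 6 and 1 in TKO_96h over WT_40h, where 19.2% of all genes were called, and 4 and 1 in TKO_96h over TKO_48h, where 19.5% were called. In TKO_40h over WT_40h 1 of 12 rose, where 3.1% of all genes were called. This was Zfp42, with 518 ± 13.1 CPM in TKO_40h, against 365 ± 43.9 CPM in WT_40h (0.50 ± 0.10, adjusted p = 0.00903), a call lost with the offset and without WT_40h replicate 2 or 3 (highest adjusted p 0.0693). In TKO_48h over TKO_40h 1 of 12 rose (Tfcp2l1) and 1 fell (Fbxo15), where 5.49% of all genes were called. Without TKO_48h replicate 1 the counts were 0 and 1.

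**Figure D4:**
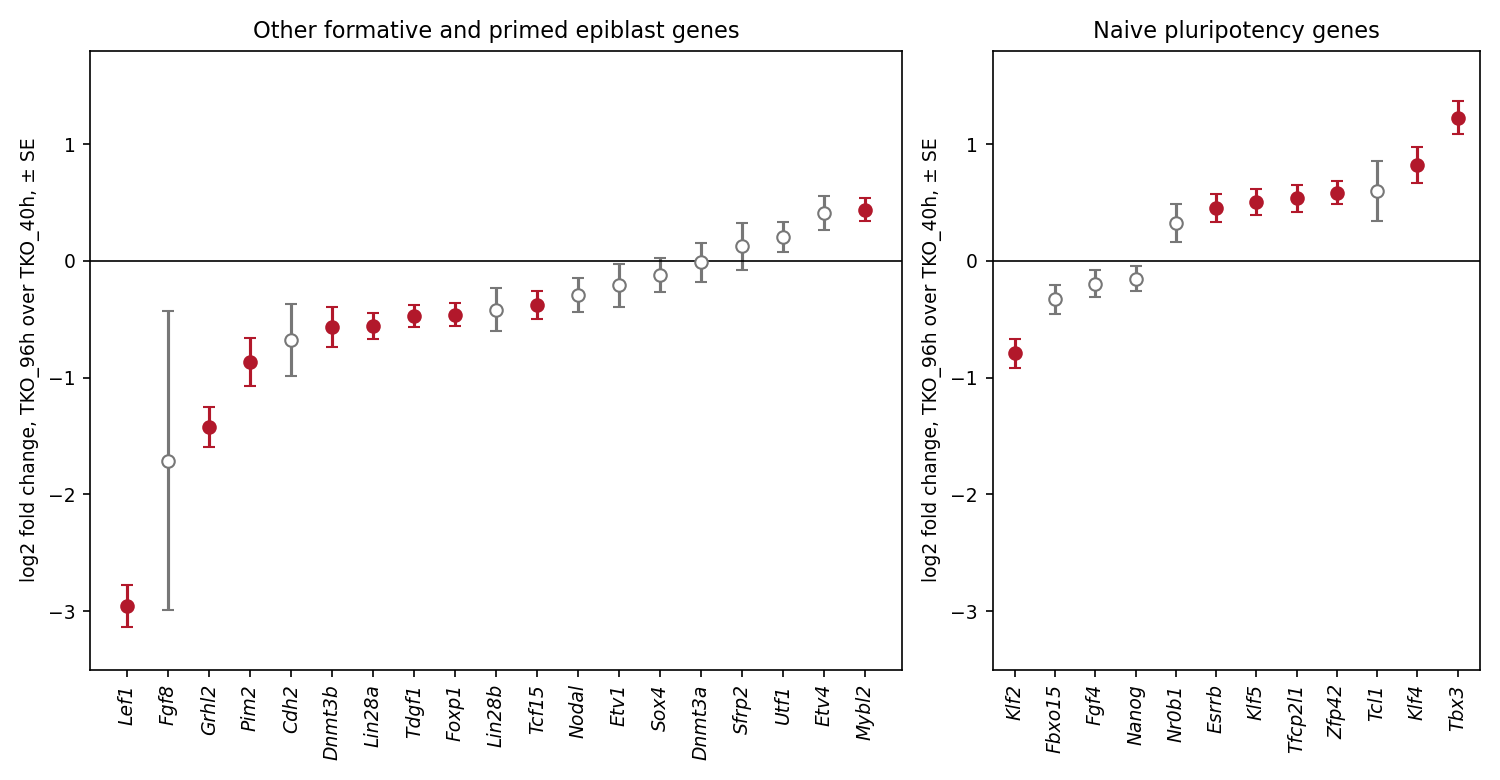
Log2 fold changes of TKO_96h over TKO_40h with standard errors (vertical axes) for 19 of the 20 other formative and primed epiblast genes and for 12 naive genes; filled points have an adjusted p below 0.05. The left panel runs from Lef1 at -2.95 to Mybl2 at 0.44 and the right panel from Klf2 at -0.79 to Tbx3 at 1.23.

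Core pluripotency genes were called in both directions in TKO_96h over TKO_40h, with 4 of 8 higher and 2 lower, where 12.1% of all genes were called. Without TKO_96h replicate 1 the counts were 2 and 2, and the 4 higher calls held in 4 to 12 of their 12 alternatives. Pou5f1, which encodes OCT4, averaged 794 ± 107 CPM in TKO_96h and 525 ± 20.5 CPM in TKO_40h (log2 fold change 0.60 ± 0.12, adjusted p = 0.00171). The 2 lower genes, Lin28a and Tdgf1, also belong to the epiblast list, and the Lin28a call was lost with the effective length offset (adjusted p = 0.379). Germ cell genes gave 4 of 12 lower and 0 higher in the same comparison, where 12.1% of all genes were called. Their median log2 fold change was 0.21, and at an unadjusted p below 0.05 edgeR gave 4 lower and 3 higher. Dppa3 averaged 18.5 ± 2.12 CPM in TKO_96h and 51.5 ± 5.44 CPM in TKO_40h (-1.48 ± 0.20, adjusted p = 6.47e-05), and Ddx4, a helicase gene of the germ line, 16.4 ± 4.01 CPM in TKO_96h and 37.2 ± 3.70 CPM in TKO_40h (-1.19 ± 0.19, adjusted p = 0.000227). In TKO_40h over WT_40h 2 of 12 germ cell genes rose (Dppa3 and Dazl) and 1 fell (Kit), where 3.1% of all genes were called. The Dazl call was lost with the effective length offset (adjusted p = 0.127) and the Kit call without WT_40h replicate 1 (0.0535). Dppa3 had 51.5 ± 5.44 CPM in TKO_40h, against 16.8 ± 3.81 CPM in WT_40h (1.63 ± 0.20, adjusted p = 0.000148).

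Among receptors and coreceptors for FGF ligands, Fgfr1 was the most abundant receptor, at 37.4 to 42.4 TPM on average in every group. In TKO_96h over TKO_40h 2 of 10 genes of this list fell and 1 rose, where 12.1% of all genes were called. Gpc3, a glypican, averaged 42.9 ± 7.75 CPM in TKO_96h and 168 ± 19.03 CPM in TKO_40h (log2 fold change -1.97 ± 0.15, adjusted p = 3.18e-08) and Fgfr2 7.02 ± 1.17 CPM in TKO_96h and 28.6 ± 4.12 CPM in TKO_40h (-2.02 ± 0.29, adjusted p = 0.000113, and 0.0581 with the effective length offset). Fgfr4 rose, at 7.66 ± 3.19 CPM in TKO_96h and 2.11 ± 0.53 CPM in TKO_40h (1.84 ± 0.45, adjusted p = 0.0107), a call lost without TKO_40h replicate 1 or TKO_96h replicate 3 (highest adjusted p 0.0516). Of 18 paralogues and relatives of the 8 genes, 15 were tested. In TKO_96h over TKO_40h 2 rose and 2 fell, beside the same 12.1% of all genes, and 1 rose and 2 fell without TKO_96h replicate 1. Fgf15, another FGF ligand, averaged 3.72 ± 0.66 CPM in TKO_96h and 18.4 ± 4.997 CPM in TKO_40h (-2.30 ± 0.29, adjusted p = 2.61e-05). In TKO_40h over WT_40h edgeR and DESeq2 called 0 genes of either list, and at an unadjusted p below 0.05 the receptor list had 1 higher and 1 lower and the paralogues 3 higher and 0 lower.

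Markers of other cell types were read because several of the 8 genes are also expressed in neural and neural crest cells. The summed TPM of 16 neural genes ran from 32.8 to 49.1 in TKO_40h, 30.95 to 36.9 in TKO_48h, 51.7 to 58.2 in TKO_96h and 35.8 to 39.0 in WT_40h. In TKO_96h over TKO_40h, where 12.1% of all genes were called in either direction, 2 of 10 tested neural genes rose: Nes, at 101 ± 11.6 CPM in TKO_96h and 49.3 ± 11.01 CPM in TKO_40h (log2 fold change 1.04 ± 0.15, adjusted p = 0.000103), and Tubb3, at 51.3 ± 7.16 CPM in TKO_96h and 19.2 ± 8.77 CPM in TKO_40h (1.41 ± 0.25, adjusted p = 0.000939). Of the neural list, Neurog2, Hes5 and Olig2 stayed below 1 CPM in every library. Group means of Pax6 were 27.4 to 35.4 CPM and those of Sox1 27.9 to 47.3 CPM, neither called in TKO_96h over TKO_40h. The 10 neural crest genes summed to 10.1 to 12.6, 8.23 to 13.95, 7.45 to 9.44 and 7.02 to 11.7 TPM in TKO_40h, TKO_48h, TKO_96h and WT_40h. Of 8 tested, edgeR, DESeq2 and an unadjusted p below 0.05 each gave 0 in TKO_96h over TKO_40h. Endoderm genes summed to 27.6 to 29.5, 14.1 to 21.7, 6.87 to 14.4 and 13.4 to 20.4 TPM in these groups. The TPM sums of these lists were not tested between groups. For endoderm in TKO_48h over TKO_40h, edgeR and DESeq2 called 0 of 10 tested genes, at a median log2 fold change of -0.10. At an unadjusted p below 0.05, 2 were lower and 0 higher. In TKO_96h over TKO_40h 3 of 10 tested fell, with Afp and Apoa1 listed at 0 in all TKO_96h libraries. Afp and Apoa1 averaged only 3.05 and 2.52 CPM in TKO_40h, so these falls start from a low level. Mesoderm genes summed to 8.21 to 11.9, 7.23 to 19.8, 3.31 to 7.26 and 4.44 to 4.87 TPM. Of these, 2 of 7 tested were lower in TKO_96h than in TKO_40h (Eomes and Hand1). Eomes averaged 21.85, 22.1, 6.66 and 12.2 CPM in TKO_40h, TKO_48h, TKO_96h and WT_40h. Hand1 averaged 10.2, 10.9, 3.06 and 2.00 CPM in the same groups. T, Mixl1 and Msgn1 stayed below 1 CPM in every library. Trophoblast genes summed to 20.7 to 22.9, 14.3 to 26.3, 15.4 to 20.4 and 9.39 to 9.79 TPM, and 2 of 8 tested (Hand1 and Gata3) fell in TKO_96h over TKO_40h. The endoderm, mesoderm and trophoblast counts in TKO_96h over TKO_40h stand beside the same 12.1% of all genes. Hand1 was not called there with the effective length offset or without TKO_40h replicate 3, and Gata3 not called in 6 of 12 alternatives. Against WT_40h, the mesoderm and trophoblast calls were all higher. Hand1, on both lists, was higher in TKO_40h (log2 fold change 2.35, adjusted p = 0.0047, and 0.144 with the offset) and in TKO_48h (2.44, 0.00244). Gata2 was higher in TKO_48h (1.92, 0.0205, held in 8 of 12 alternatives) and in TKO_96h (2.19, 0.00264, held in all 12). The part of such cells in the values of the 8 genes was not tested.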

How the data were processed

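RNA was measured in 12 PGCLC libraries, made per the labels' protocols from total RNA with a stranded kit for small inputs. The authors deposited estimated counts per transcript, TPM, length and effective length in bases. Trimming used Trim Galore 0.6.2 and quantification kallisto, with GRCm38 as build, per the submitters' processing notes. Neither the version of kallisto nor its index is given in the sources used here. The deposited TPM were summed per gene and used for levels between genes.

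Of 119414 transcripts, 116728 (97.8%) were matched to GENCODE M21, and estimated counts were added up within each gene, then rounded. edgeR 4.0.16 in R 4.3.3 was run with TMM factors (0.927 to 1.063), filterByExpr (minimum count 10, minimum total 15) and a quasi-likelihood model in which every group had 1 mean and the 12 libraries shared the spread. CPM use TMM library sizes. The SE was obtained from F and the log2 fold change. The procedure was tested on simulated counts. The biological coefficient of variation was 0.241. The genes and the gene lists were chosen with earlier results of these data known. Genes named beside the set are, for each of its genes, the 2 with the highest correlation of log2 CPM and, from each list, up to 3 called per comparison by adjusted p. Fgfr1, Nanos3, Mybl2, Pax6, Sox1 and the lineage genes near 0 were named after their values were seen. Same-numbered replicates were not taken as pairs, since their deviations from the group means correlated at -0.0598 to 0.0507 over 18 pairs of libraries. Alternatives were RLE size factors, no filter, a replicate block, an effective length offset, DESeq2 1.42.0, only the groups compared and each library left out. Alternatives for the list genes were chosen after seeing the data. Overlapping genes such as Otx2os1 were not used here. A gene that is counted in a list but not named is not reported here. Counting error limits values that rest on few counts. Other days named in the series description were not analysed here.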

Additional observations from a re-analysis of the deposited data

How the results depend on the processing

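Of 16 calls of the 8 genes over 6 comparisons, 11 held in all 12 alternatives of their comparison, and 27 of 32 differences that were not called stayed so in all. Scaling alternatives moved the median of all genes by less than 0.1. The number called in TKO_40h over WT_40h was 2, and it was 0 with an effective length offset and 0 to 2 with single libraries left out. In TKO_48h over TKO_40h it was 3, and 1 with the offset. The replicate block gave the same counts, 2, 3, 4, 3, 1 and 3, and moved no call of the 8 genes. Signs turned only for differences that were not called. The log2 fold change of Zic5 in TKO_40h over WT_40h was -0.10 with the offset and -0.027 to 0.081 with single libraries left out. Ranges under such omissions were -0.055 to 0.21 for Zic2 in TKO_48h over TKO_40h, -0.089 to 0.14 for Zic2 in TKO_96h over TKO_40h, -0.13 to 0.10 for Foxd3 in TKO_96h over TKO_40h, -0.42 to 0.11 for Sox3 in TKO_96h over TKO_48h, -0.18 to 0.083 for Zic2 in TKO_96h over TKO_48h, -0.31 to 0.045 for Fgf5 in TKO_48h over WT_40h and -0.15 to 0.27 for Foxd3 in TKO_48h over WT_40h. Counts over all genes moved by over 1.5 times. In TKO_40h over WT_40h the 501 calls became 77 with the offset, 787 without a filter, 785 with DESeq2, 1279 with only the groups compared and 181 to 217 with single libraries left out. The 888 of TKO_48h over TKO_40h became 203 with the offset and as few as 324 with a library left out. TKO_96h over TKO_40h gave 1965, 828 with the offset and 1210 without TKO_40h replicate 3. For TKO_96h over TKO_48h 3157 became 1639 with the offset. TKO_48h over WT_40h gave 916, 238 with the offset, 586 with only the groups compared and 396 to 1541 with single libraries left out, and TKO_96h over WT_40h 3099 and 1468. The cause was not tested. Values of Fgf5 in TKO_96h and of Foxd3 are limited by their few counts.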

Other observations

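Transcripts of 1 gene were not tested, and their estimated counts are given as values. Otx2-201 took the following shares of the Otx2 counts, with 50.5 to 67.9% per library in TKO_40h, 49.5 to 55.7% in TKO_48h, 47.1 to 87.3% in TKO_96h and 64.1 to 76.0% in WT_40h. Sall2 has 2 transcripts with separate starts. Sall2-202, whose start has 10 CG in its promoter window, took 41.5 to 92.7% in TKO_40h, 32.7 to 82.1% in TKO_48h, 77.2 to 100% in TKO_96h and 48.4 to 75.8% in WT_40h. Its estimated counts per library were 193 to 357, 66.4 to 109, 232 to 272 and 237 to 350 in the same groups, while those of Sall2-201 were 28.0 to 272, 23.8 to 138, 0 to 77.2 and 108 to 253. TKO_48h thus had the lowest counts of Sall2-202, and TKO_96h overlapped with TKO_40h and WT_40h for it. Fgf5-202, the shorter transcript of Fgf5, was listed at 0 in every TKO_96h library and reached 22.6 counts in TKO_40h.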
